A study of Mus musculus with 8 samples.

Results

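The regions described are the very wide peaks of open chromatin in the deposited count table: peaks on chromosomes 1 to 19 that span 1500 bp or more from start to end. There were 4279 of them among 134473 peaks, 131074 of which lay on these chromosomes. A further 107 peaks of this width lay on chromosome X and none on Y, and these were left out by the rule.

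The study compared 2 sorted subpopulations of MPP2 cells, multipotent progenitors of the bone marrow, by Omni-ATAC, a form of bulk ATAC-seq. Both groups came from C57BL/6 mice aged 8 to 12 weeks and were sorted as LSK cells (a lineage-negative gate on Sca1 and Kit) without Flt3 and with CD150 and CD48. The first group, Vwf+Gata1+, and the second, Vwf-Gata1+, share Gata1 and differ in Vwf, and each has 4 libraries of 500 cells. The labels do not say how Vwf and Gata1 were detected, nor whether the libraries of a group came from separate animals. A p-value here therefore sets a difference against the spread from library to library, which may in part be technical.

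In ATAC-seq the transposase Tn5 cuts DNA that nucleosomes leave accessible and inserts sequencing adapters there, and a peak is a stretch where such cuts pile up. Most accessible sites are narrow, the footprint of an enhancer or of a bound factor. Wide peaks are typically promoters of active genes, where a nucleosome-free start site and its flanks are cut, or runs of neighbouring sites that a caller has joined. Because a peak is called from the reads, its width and its signal are not independent measures. The table pairs no peak with a gene, and the annotation at hand is of another build than mm9, the build of the submitters' notes. Peaks are therefore given by mm9 position, without genes, exons, introns or sequence, and the sorted cell type could not be checked against marker genes.

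The wide peaks were 3.26% of the autosomal peaks and 10.9% of the bases that autosomal peaks cover (7.67 Mb), and they held on average 20.7% of all counts in peaks. Their median width was 1715 bp and the widest spanned 4022 bp. Widths crowded towards the lower limit: 3494 members (81.7%) were under 2000 bp, 688 were from 2000 to under 2500 bp and 97 were 2500 bp or more, of which 11 reached 3000 bp. Exactly 1500 bp was the width of 12 members, and another 10 peaks were 1 bp too narrow. Of 3 members just inside the limit, chr11:33831659-33833158 had a mean of 17.5 CPM (counts scaled to library size, after TMM scaling), chr11:62389222-62390721 had 42.0 CPM and chr13:55430576-55432075 had 66.1 CPM. Just outside it, chr1:93146215-93147713 had 40.4 CPM, chr11:77161383-77162881 had 34.6 CPM and chr11:114712682-114714180 had 11.2 CPM. The values on either side of the limit overlapped.

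Counts at these regions were high. Total counts in peaks ran from 4628997 to 7753538 per library, and the median count of a wide peak ran from 207 to 350. The lowest count of any wide peak in any library was 11, and all 4279 passed the filter on low counts, which 97040 of the 134473 peaks passed.

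Signal over the wide peaks ranged from 4.42 to 186 CPM, with a median of 46.8 CPM and the middle 50% between 31.3 and 65.3 CPM. The median was 22.7 CPM for peaks from 1000 bp up to that limit, 6.36 CPM for those from 500 to under 1000 bp and 2.57 CPM for tested peaks from 200 to under 500 bp. The order was the same per kb of peak, with a median of 26.6 CPM per kb in wide peaks against 18.9, 9.36 and 7.67 in those classes. When all tested peaks were divided into 10 equal classes by mean CPM, 3428 wide peaks (80.1%) were in the class of highest signal and 668 (15.6%) in the next. Of the 970 tested peaks with the highest signal, 716 (73.8%) were wide. Within each class that held wide peaks the order per kb turned, because similar CPM was divided by a larger width. The median was 29.9 CPM per kb in wide peaks and 34.6 in narrower autosomal ones in the top class, and 12.2 and 20.3 in the next.

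Among the wide peaks themselves, signal went up further with width. The median was 43.4 CPM in those under 2000 bp, 62.8 CPM from 2000 to under 2500 bp and 79.6 CPM at 2500 bp or more. Across the 4279 peaks the Spearman correlation of width with mean CPM was 0.33, with CPM per kb 0.10, and with the spread between libraries -0.16. These describe peaks of the same 8 libraries, from whose reads the widths were called.

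**Figure D1:**
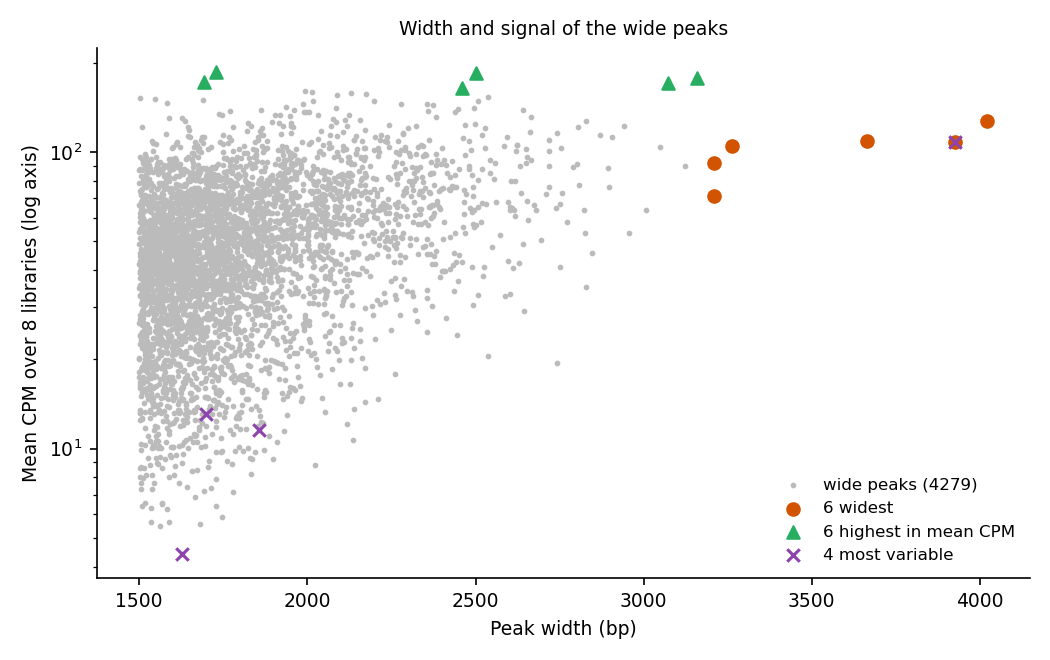
Mean CPM over the 8 libraries (log axis) against peak width in bp for the 4279 wide peaks, with the 6 widest, the 6 of highest mean CPM and the 4 most variable marked. The 6 widest lie between 71.3 and 127 CPM, and the 6 of highest signal, from 164 to 186 CPM, range in width from 1694 to 3159 bp.

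The highest signal belonged to chr12:56255276-56257004, of only 1729 bp, with a mean of 186 CPM. Next came chr5:109985676-109988177 (2502 bp, 185 CPM), chr12:113182121-113185279 (3159 bp, 177 CPM), chr16:42874940-42876633 (1694 bp, 173 CPM), chr5:22938282-22941354 (3073 bp, 171 CPM) and chr15:36722009-36724468 (2460 bp, 164 CPM). These leading peaks were not a large part of the total, since the 10 strongest wide peaks together held 0.163% of counts. In chr12:56255276-56257004 the Vwf+Gata1+ libraries had 178, 205, 204 and 194 CPM and the Vwf-Gata1+ libraries 137, 184, 204 and 185 CPM, in replicate order. Replicate 1 was the lowest library of each group there, and the groups overlapped.

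The widest peak, chr12:60136042-60140063, spanned 4022 bp with a mean of 127 CPM. Its libraries read 119, 158, 107 and 141 CPM in Vwf+Gata1+ and 74.5, 119, 167 and 128 CPM in Vwf-Gata1+. The second, chr18:73849191-73853116 (3926 bp), read 218, 111, 44.9 and 117 CPM in Vwf+Gata1+ and 130, 73.5, 77.0 and 90.8 CPM in Vwf-Gata1+. Both varied far beyond counting error. The within-group standard deviation (SD) of log2 CPM was 0.385 in the first, where counting alone gives 0.053, and 0.713 in the second, where counting gives 0.0642. The third, chr5:3341050-3344713 (3664 bp), also had an SD above counting, 0.189 against 0.0562, with libraries from 81.9 to 127 CPM. In the other 3 of the 6 widest the SD was lower: 0.0742 in chr5:43623597-43626859, 0.0899 in chr15:89327944-89331152 and 0.0485 in chr15:85499332-85502540 (3209 bp), whose 8 libraries stayed between 66.3 and 75.1 CPM.

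Wide peaks were spread over all 19 autosomes at 1.34 to 2.90 per Mb between the first and last peak of a chromosome. They were the smallest share of peaks on chromosome 6 (197 of 7795, 2.53%, exact binomial interval 2.19% to 2.90%) and the largest on chromosome 19 (169 of 4089, 4.13%, 3.54% to 4.79%). Chromosomes 11 and 19 held 2.90 per Mb each. The nearest other peak of any width lay a median of 4798 bp away, against 2384 bp for all autosomal peaks, and 22.0% of wide peaks had one within 1 kb, against 32.5%. Over a larger distance the surroundings were alike: a wide peak had a median of 12 other peaks within 50 kb, and all autosomal peaks had 11. Another wide peak lay a median of 97886 bp away, within 10 kb for 194 (4.53%) and more than 1 Mb away for 149.

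The closest neighbours among the wide peaks were chr10:13684298-13686236 and chr10:13686360-13687980, separated by 123 bp. Their signals parted in Vwf-Gata1+ replicate 3, where the first was at 67.9 CPM, its highest of 8 libraries, and the second at 32.4 CPM, its lowest. In Vwf-Gata1+ replicate 2 both were low, at 54.1 CPM, the lowest value of the first, and 35.1 CPM. The next pairs were 3672 bp apart (chr13:29043914-29045941 and chr13:29049614-29051907, at 68.7 and 64.2 CPM) and 3964 bp apart (chr14:56203527-56205490 and chr14:56209455-56211405, at 42.9 and 116 CPM). The Mb-sized windows with the most wide peaks were found after the values were seen. They were chr11:115000001-116000000 with 15, chr17:56000001-57000000 with 13 and chr11:120000001-121000000 with 12. In the first, 11 of 15 peaks had a higher mean in Vwf+Gata1+, and their log2 fold changes lay between -0.19 and 0.15. In the second 5 of 13 were higher and in the third 9 of 12, beside 63.6% of all wide peaks.

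The share of counts that fell in wide peaks was then compared between the groups. In bulk libraries, more open chromatin per cell and more cells with the region open cannot be told apart. The 4 Vwf+Gata1+ libraries had 20.5%, 21.1%, 21.0% and 21.0% of their counts there, and the 4 Vwf-Gata1+ libraries 19.9%, 20.3%, 21.3% and 20.8%. Vwf-Gata1+ libraries held both the lowest and the highest share, so the groups overlapped. Exact binomial 95% intervals, which cover counting error only, were narrow beside these gaps, such as 19.89% to 19.94% in the lowest library. The means were 20.9% ± 0.274 and 20.6% ± 0.627 (SD, n = 4 each). Their difference of 0.294 percentage points was not larger than the spread between libraries (exact permutation test, 2-sided, p = 0.429, adjusted p = 0.486 over 4 tests; the smallest p that 4 against 4 allow is 0.0286).

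**Figure D2:**
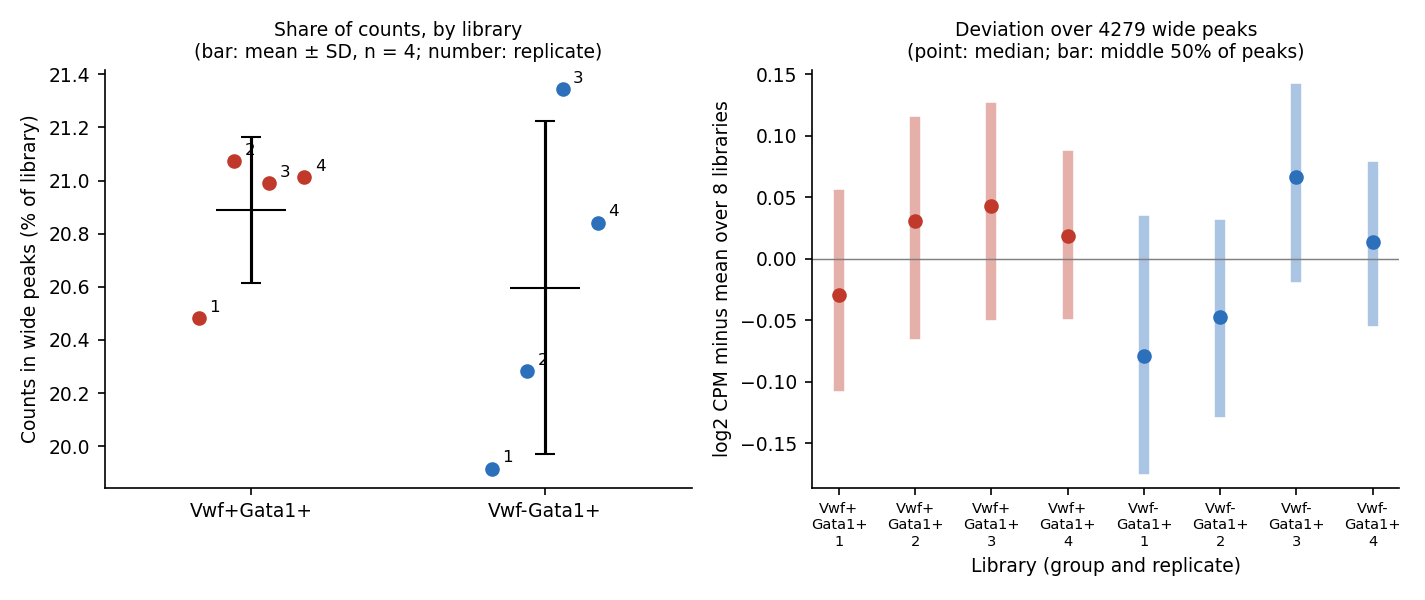
Left, percent of each library's counts that lie in wide peaks, by group, with replicate numbers and mean ± SD (n = 4). Right, median deviation of log2 CPM from the mean of the 8 libraries over the 4279 wide peaks, with the middle 50% of peaks as a bar. The share runs from 19.9% to 21.3%, and both ends belong to Vwf-Gata1+ libraries.

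After TMM scaling the summed signal was 218178 ± 6394 CPM in Vwf+Gata1+ and 212609 ± 11518 CPM in Vwf-Gata1+ (SD, n = 4; exact permutation test, 2-sided, p = 0.457). The median deviation of a library from the mean of all 8 was -0.03, 0.03, 0.04 and 0.02 (log2) in Vwf+Gata1+ and -0.08, -0.05, 0.07 and 0.01 in Vwf-Gata1+. The share of wide peaks above their 8-library mean ran from 31.4% in Vwf-Gata1+ replicate 1 to 71.3% in Vwf-Gata1+ replicate 3, and was 55.7% and 58.0% in replicate 4 of Vwf-Gata1+ and Vwf+Gata1+. In all 8 libraries the middle 50% of peaks spanned 0.

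Depth and the signal in the narrowest peaks were set beside the share. Over the 8 libraries the correlation of the share with total counts did not pass the threshold (r = -0.66, permutation p = 0.0757; rho = -0.60, permutation p = 0.132), and r was -0.55 without the 2 libraries farthest from the median total, both replicate 3. Within Vwf+Gata1+ and Vwf-Gata1+ this r was -0.65 and -0.84, over only 4 libraries each. With the percent of counts in peaks under 300 bp, which ran from 5.83% to 6.75%, the share correlated at r = -0.92 (exact permutation p = 0.00146, adjusted p = 0.00293 over 2 relations) and rho = -0.81 (exact permutation p = 0.0218, adjusted p = 0.0436). That r was -0.79 without the 2 libraries farthest from the median. Both percentages share a denominator. The part of depth and of narrow peaks in the group comparison was not tested.

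Libraries of the same replicate number deviated together over the wide peaks. The correlation of their deviations from the group means was 0.54, 0.31, 0.20 and 0.13 for numbers 1 to 4, and 8 of 8 libraries correlated best with the library of their own number. Over all tested peaks it was weaker, 0.30, 0.16, 0.07 and 0.01, with 5 of 8. The closest pair over the wide peaks was replicate 1 of one group with replicate 1 of the other (r = 0.35 for deviations from the mean of 8 libraries), closer than any 2 libraries of one group. The mean r was -0.11 over the 12 pairs within a group and -0.16 over all pairs between groups, a difference that did not pass (exact permutation test, 1-sided, p = 0.286). That test takes no account of the numbers: between groups the mean was 0.09 over the 4 same-number pairs and -0.24 over the 12 others, and the gap between the latter and the pairs within a group was not tested. No label says what a shared number stands for. Within numbers, the share of counts was higher in Vwf+Gata1+ by 0.566, 0.789 and 0.172 percentage points in replicates 1, 2 and 4, and in replicate 3 the difference was -0.353 (exact sign-flip permutation test, p = 0.375; the smallest p that 4 pairs allow is 0.125).

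The wide peaks were the steadiest width class between libraries of a group. The median SD of log2 CPM was 0.125, against 0.160, 0.260 and 0.355 in the 3 narrower classes, in order of falling width. The SD expected from counting alone followed the same order, with 0.0858 in wide peaks and 0.123, 0.237 and 0.382 in the others. Relative to counting, the median ratio of the 2 SDs was 1.39 in wide peaks, against 1.27, 1.11 and 0.97. At like signal the ratios were close. They were 1.44 in wide and 1.42 in narrower peaks of the top signal class, and 1.27 and 1.24 in the next. The prior count shrinks the SD of weak peaks but not that of counting, which lowers their ratio. Variation beyond counting in edgeR (square root of the dispersion) had the reverse order, with medians of 0.0791 in wide peaks and 0.0880, 0.123 and 0.150 in the others. Among peaks of the top signal class the wide ones had a median SD of 0.117 and the narrower ones 0.131. In the next class these were 0.165 and 0.170, and in the one below it, with 150 wide peaks, 0.219 and 0.216. At like signal the wide peaks were thus little or no steadier. The individual SDs of wide peaks ranged from 0.0228 to 0.714, with the middle 50% between 0.0956 and 0.161.

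**Figure D3:**
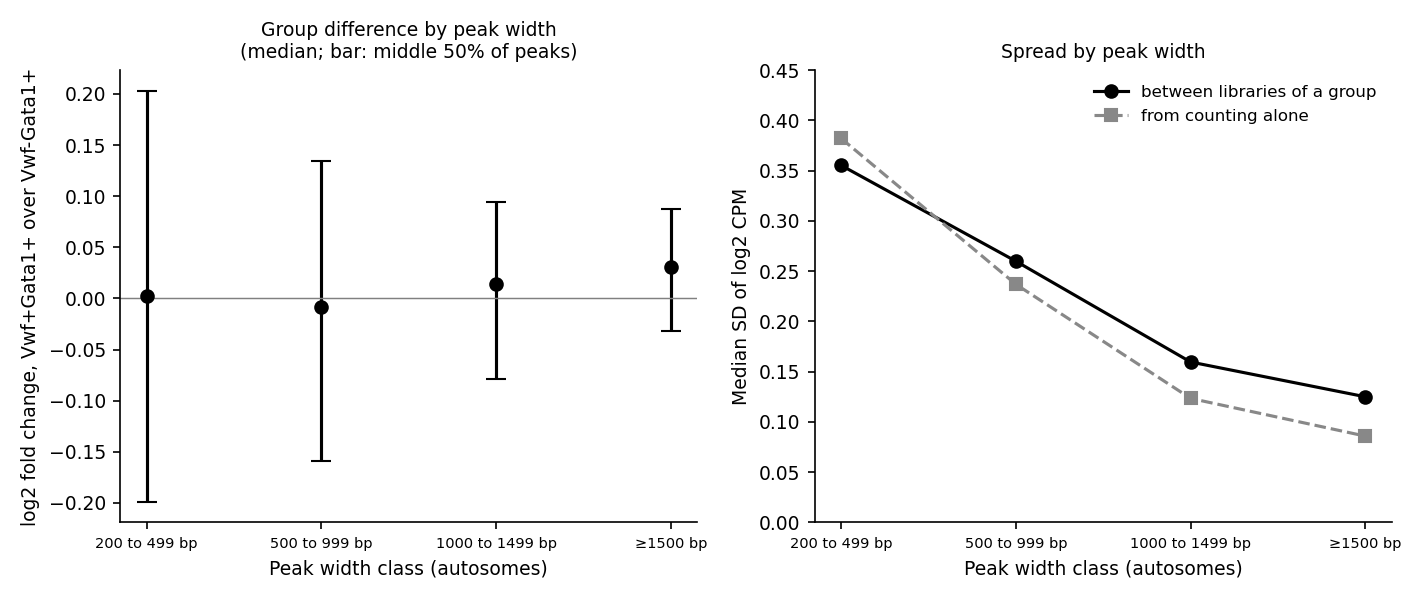
Left, log2 fold change of Vwf+Gata1+ over Vwf-Gata1+ by width class on the autosomes (point, median; bar, middle 50% of tested peaks). Right, median SD of log2 CPM between libraries of a group and the SD expected from counting alone. In peaks of 1500 bp or more the median fold change is 0.03 and the median SD 0.125, above the 0.0858 of counting.

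The steadiest wide peak was chr16:8636827-8638681 (1855 bp, SD 0.0228), whose 8 libraries lay between 45.4 and 48.8 CPM. The next were chr17:45569629-45571287 (53.5 to 57.9 CPM), chr16:13256000-13257597 (26.0 to 29.8 CPM) and chr17:48060479-48062558 (54.6 to 59.4 CPM). Each of these SDs was below the one that counting gives. The most variable was chr1:59456747-59458445 (1699 bp, SD 0.714), with 5.93, 17.8, 10.5 and 18.7 CPM in Vwf+Gata1+ and 5.88, 15.2, 16.4 and 14.6 CPM in Vwf-Gata1+. Its 2 replicate 1 libraries were the lowest of the 8. Besides the chr18 peak given above, chr5:151246467-151248323 (SD 0.622) and chr6:145733182-145734808 (SD 0.572, the wide peak of lowest signal at 4.42 CPM) led the list.

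Spread was slightly lower in Vwf+Gata1+. The median coefficient of variation of a wide peak was 0.0790 in Vwf+Gata1+ and 0.0869 in Vwf-Gata1+, and it was the higher one in Vwf+Gata1+ at 42.0% of wide peaks, against 52.2% of all tested peaks. The 4 Vwf-Gata1+ libraries also lay farther apart in the share above, so the peaks are not independent counts of this difference and it was not tested.

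Each wide peak was then compared between the groups, with edgeR's quasi-likelihood test fitted on all 97040 tested peaks. None of the 4279 passed an adjusted p of 0.05. In all tested peaks 13 were higher in Vwf+Gata1+ (0.0134%) and 1 lower (0.00103%), so that at the background rate fewer than 1 wide peak would be called. Unadjusted p was under 0.05 for 110 wide peaks with higher signal in Vwf+Gata1+ (2.57%) and 64 with lower (1.496%). The background over all tested peaks was 3.52% and 3.2%, so both shares were below it. On the higher side this relation turned in other fits. With the replicate number as a block, 419 wide peaks were higher (9.79%, background 5.66%) and 132 lower (3.08%, background 4.61%). Without Vwf-Gata1+ replicate 3, 328 were higher (7.67%, background 4.04%) and 47 lower (1.10%, background 3.18%). With total counts as the scaling in place of TMM the split was 116 to 106, together 5.19% against a background of 6.76%. DESeq2 gave 91 at this level (2.13%, background 3.47%) and limma-voom 229 (5.35%, background 7.49%), and each also called 0 wide peaks.

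In 72 wide peaks (1.68%) every Vwf+Gata1+ library was above every Vwf-Gata1+ library, and in 49 (1.15%) every one was below. The background was 1.81% and 2.07%. The higher count was thus near the background and the lower count under it.

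The fold changes were small and well bounded. The median log2 fold change was 0.03 (middle 50% from -0.03 to 0.09), and 63.6% of wide peaks had a higher mean in Vwf+Gata1+, against 0.00 and 50.7% in all tested peaks. Narrower peaks of the top signal class had a median of 0.04, and so did the wide ones of that class. With total count scaling the median over wide peaks was 0.01 and over all tested peaks -0.02. The median standard error (SE) was 0.09, and the 95% interval excluded changes beyond 1.5-fold both ways for 4181 wide peaks (97.7%), against 41.5% of all tested peaks. All but 8 excluded changes beyond 2-fold.

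Only 4 wide peaks had an estimated fold change beyond 1.5-fold (0.0935%, against 4.62% of tested peaks), the largest 1.90-fold. They were chr5:151246467-151248323, chr8:13036187-13037921, chr7:4675158-4677367 and chr1:153647310-153650139, the last of which was picked out after its values were seen. The chr5 peak read 9.35, 9.38, 24.8 and 17.4 CPM in Vwf+Gata1+ and 10.6, 6.15, 9.95 and 4.52 CPM in Vwf-Gata1+, a log2 fold change of 0.93 ± 0.41 (SE) with overlapping groups and an edgeR adjusted p of 0.757. In the chr1 peak (2830 bp) the values were 42.5, 39.8, 53.2 and 33.2 CPM against 24.3, 19.2, 30.8 and 36.8 CPM, a log2 fold change of 0.59 ± 0.19 (SE) with an edgeR adjusted p of 0.570. Its groups overlapped through replicate 4 alone.

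Among the wide peaks higher in Vwf+Gata1+, the lowest p belonged to chr8:13036187-13037921 (1735 bp). Its libraries had 29.4, 35.7, 46.3 and 34.4 CPM in Vwf+Gata1+ and 19.9, 22.9, 17.6 and 29.0 CPM in Vwf-Gata1+. The groups did not overlap, but the lowest of the first and the highest of the second nearly met. The log2 fold change was 0.68 ± 0.14 (SE) and the edgeR adjusted p 0.0767. It was called when Vwf+Gata1+ replicate 1 was left out (adjusted p = 0.00592), when Vwf-Gata1+ replicate 4 was left out (adjusted p = 0.0199), and without replicate 1 of both groups (adjusted p = 0.0444).

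The other 5 on the higher side had log2 fold changes from 0.32 to 0.50 and no overlap between groups. In chr10:77747383-77748898 (1516 bp) the Vwf+Gata1+ libraries had 21.3, 20.3, 32.8 and 19.99 CPM and the Vwf-Gata1+ libraries 15.6, 17.1, 16.2 and 16.8 CPM. Replicate 3 stood far above the rest of the first group there. The strongest was chr16:4963880-4965440 (1561 bp), with 70.3, 66.8, 79.99 and 70.02 CPM against 58.4, 60.7, 55.6 and 55.3 CPM. Its log2 fold change was 0.32 ± 0.08 (SE) with an edgeR adjusted p of 0.249. Means were 54.0 ± 4.49 against 43.0 ± 2.36 CPM in chr7:135534760-135536757 and 35.5 ± 5.75 against 26.8 ± 2.83 CPM in chr1:129244296-129245839 (SD, n = 4). The sixth, chr2:177573788-177575551, had 54.7 ± 4.76 against 43.4 ± 4.93 CPM and is one of a run of peaks described below.

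On the lower side, chr7:4675158-4677367 (2210 bp) led with 12.6, 12.0, 10.3 and 10.8 CPM in Vwf+Gata1+ and 18.2, 15.8, 17.9 and 19.8 CPM in Vwf-Gata1+. Every library of the first group was below every library of the second. Its log2 fold change was -0.64 ± 0.14 (SE) and its edgeR adjusted p 0.0705, the lowest of all wide peaks, and it was called without Vwf+Gata1+ replicate 1 (adjusted p = 0.0453). For a wide peak its signal was low, with a mean of 14.7 CPM.

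The second, chr15:27756749-27758480 (1732 bp), had 17.1, 15.8, 17.6 and 16.4 CPM in Vwf+Gata1+ and 22.9, 23.8, 31.2 and 22.3 CPM in Vwf-Gata1+. The groups did not overlap and replicate 3 was the highest of the second. Its log2 fold change was -0.57 ± 0.12 (SE) with an edgeR adjusted p of 0.0726, and with total count scaling it was called (adjusted p = 0.0438). About 123 kb before it on the same chromosome lay chr15:27631700-27633420, the fourth of the lower side, with 26.5, 20.6, 21.1 and 23.004 CPM against 28.5, 26.4, 32.2 and 31.2 CPM. There Vwf+Gata1+ replicate 1 was level with the lowest library of the other group. The rest were chr13:111833656-111835394 (28.7 ± 3.01 against 37.8 ± 2.89 CPM), chr13:95365117-95366901 (8.07 ± 0.879 against 11.5 ± 1.43 CPM) and chr2:155567876-155569418 (26.3 ± 1.56 against 33.2 ± 3.81 CPM, SD, n = 4).

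**Figure D4:**
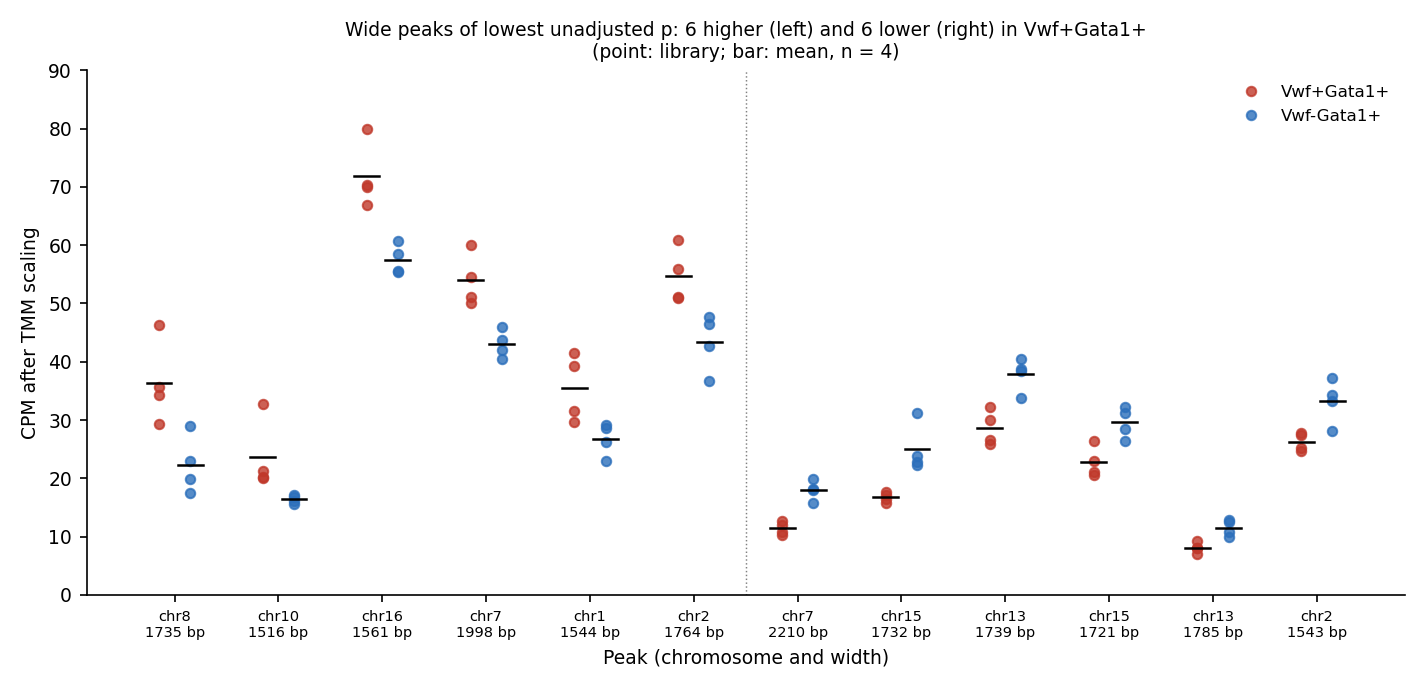
CPM after TMM scaling in each library (points) and group means (bars, n = 4) for the 12 wide peaks of lowest unadjusted p, 6 higher and 6 lower in Vwf+Gata1+, named by chromosome and width. The groups do not overlap in 11 of the 12, and all 12 have an edgeR adjusted p above 0.05.

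With the replicate number as a block in the fit, 25 wide peaks passed, 20 higher in Vwf+Gata1+ (0.467%) and 5 lower (0.117%). The background of that fit was 0.386% higher and 0.14% lower, near the shares of the wide peaks. For 23 of the 25 the difference had the same direction in all 4 same-number pairs, a trait that the blocked fit selects for. Over all wide peaks 13.6% were higher in all 4 pairs and 6.10% lower. In the fit without the block 24 of the 25 had an unadjusted p under 0.05, but it uses the same counts and is no separate support. Their fold changes were between 1.17 and 1.58. Of the 12 peaks described above, 10 were among them. The blocked log2 fold change was 0.66 ± 0.12 (SE) for chr8:13036187-13037921 (edgeR adjusted p = 0.0042) and -0.64 ± 0.12 (SE) for chr7:4675158-4677367 (edgeR adjusted p = 0.00161), each close to the value without the block. The lowest adjusted p of the blocked fit, 0.000195, belonged to chr2:175799099-175800653, with 37.3, 46.7, 43.3 and 42.6 CPM in Vwf+Gata1+ and 19.3, 26.0, 39.0 and 33.4 CPM in Vwf-Gata1+. Without the block its groups overlapped and its edgeR adjusted p was 0.445, at a log2 fold change of 0.54.

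That peak belonged to a run of wide peaks on chromosome 2 which varied together between libraries. Such runs were looked for after the values were seen, among the 100 wide peaks of highest spread (SD of 0.305 or more): members within 1 Mb of each other were joined, and runs of at least 5 kept. They gave 3 stretches, on chromosomes 2, 4 and 14, holding 41 wide peaks and 35 of those 100. The chromosome 2 stretch was extended to nearby peaks called with the block. Because the peaks were picked for their spread or their calls, the values that follow are descriptions and carry no test.

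The chromosome 2 stretch ran from 174966291 to 177575551 and held 10 wide peaks, all of 1518 to 1764 bp. Across the 8 libraries their mean pairwise correlation was 0.93, against 0.11 over all pairs of wide peaks. All 10 had a higher mean in Vwf+Gata1+, with log2 fold changes of 0.29 to 0.54, and 6 of the 20 peaks called higher with the block lay here. Summed over the 10, the Vwf+Gata1+ libraries had 388, 418, 451 and 441 CPM and the Vwf-Gata1+ libraries 238, 298, 427 and 365 CPM. The groups overlapped: Vwf-Gata1+ replicate 3 was as high as the first group, and replicates 1 and 2 were the low ones. Some members had values close to those of the peak above in the Vwf-Gata1+ libraries, where chr2:175100144-175101680 had 20.8, 26.3, 40.4 and 34.004 CPM and chr2:176328830-176330348 had 19.5, 27.7, 40.2 and 32.7 CPM. In Vwf+Gata1+ they lay farther apart, with 37.5, 39.97, 46.1 and 40.4 CPM in the first and 36.9, 43.9, 41.3 and 43.4 CPM in the second.

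On chromosome 4 the stretch spanned 41812146 to 42749268 (0.937 Mb) with 9 wide peaks, all between 1501 and 1548 bp wide. Its peaks had a mean pairwise correlation of 0.94 and a median SD of 0.386, where counting gives 0.104. The sums were 299.1, 317, 291 and 381 CPM in Vwf+Gata1+ and 194, 258, 401 and 388 CPM in Vwf-Gata1+. The second group held both the lowest and the highest values, and log2 fold changes were only 0.01 to 0.19. The chromosome 14 stretch, from 3332023 to 8491664, held 22 wide peaks among 91 peaks in all (24.2%), with a mean pairwise correlation of 0.77. Its sums were 324, 353, 490 and 420 CPM against 257, 343, 498 and 400 CPM, high in replicate 3 of both groups.

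**Figure D5:**
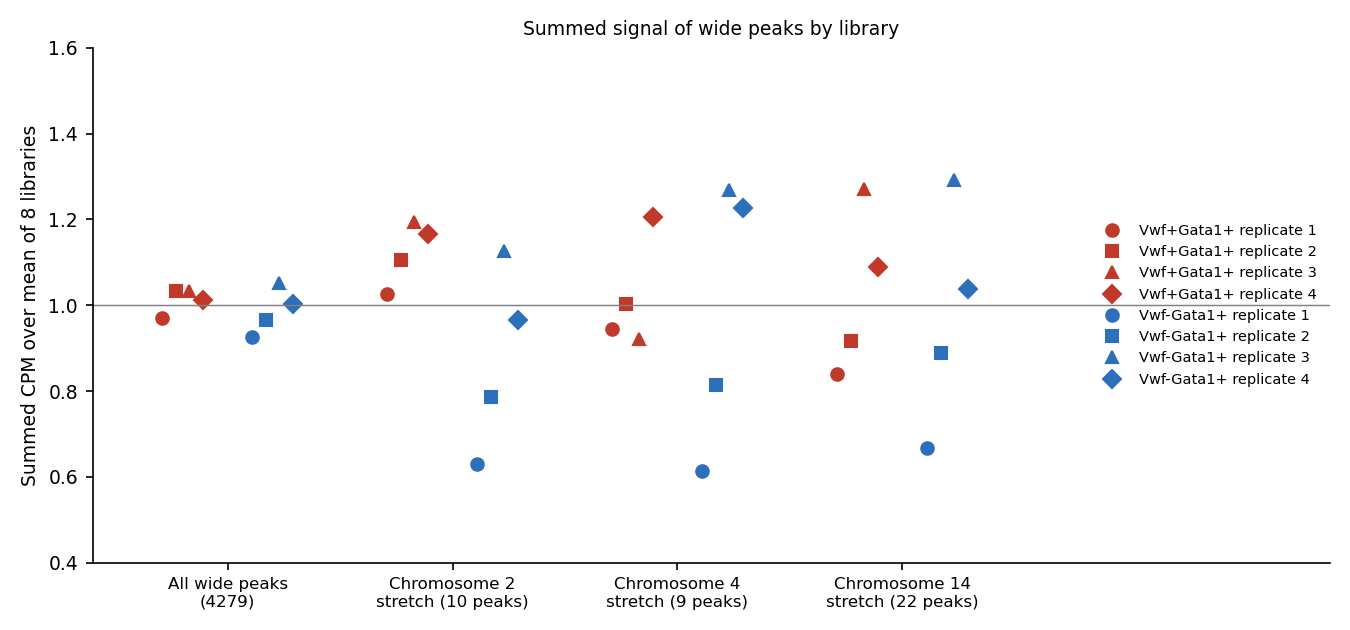
Summed CPM of each library divided by the mean of the 8 libraries, for all 4279 wide peaks and for the 10, 9 and 22 wide peaks of the stretches on chromosomes 2, 4 and 14 (colour, group; symbol, replicate number). Vwf-Gata1+ replicate 1 is the lowest library in all 3 stretches, and in the sum of all wide peaks too.

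Vwf-Gata1+ replicate 1 was the lowest of the 8 libraries in 37 of the 41 peaks of these stretches, and in 34.1% of all wide peaks. Whether these peaks are near-identical copies that share reads was not tested, since no sequence was at hand, and the values of single peaks there are uncertain for that reason. Without the 41 peaks, 102 of 4238 wide peaks were higher and 64 lower at an unadjusted p under 0.05 (together 3.92%, against 6.72% of all tested peaks). The blocked fit then called 14 higher and 5 lower, beside its background of 0.386% and 0.14%. The share of counts was then 20.8% in Vwf+Gata1+ and 20.5% in Vwf-Gata1+ (exact permutation test, p = 0.429).

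Of the single libraries, Vwf-Gata1+ replicate 3 moved the calls most. Without it, edgeR's test called 14 wide peaks, against 0 with all libraries, and all 14 were higher in Vwf+Gata1+ (0.327%). Over all peaks tested without it, 51 of 104105 were called higher (0.049%), so the share of the wide peaks was above the background there. Among them were 3 of the chromosome 2 stretch, and chr8:109201297-109202924 (log2 fold change 0.80, edgeR adjusted p = 0.000291) and chr10:47173173-47175393 (log2 fold change 0.73, edgeR adjusted p = 0.000291), which were picked out after their values were seen. This library also had the highest share of counts in wide peaks, 21.3%. Leaving out any other single library gave 0 to 2 calls.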

How the data were processed

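The authors deposited raw counts for 134473 peaks in 8 bulk ATAC-seq libraries. The submitters' processing notes name mm9 as the build and, as tools, MACS2, Bowtie2, Picard, SAMtools, FastQC and Trim Galore. Their roles and versions, any shift of read ends to the Tn5 cut, the treatment of duplicates, whether reads or fragments were counted, and how peaks were merged across libraries are not given in the sources used here. Merging sets widths, and duplicates kept in 500-cell libraries could add to the spread.

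Peaks were filtered with edgeR's filterByExpr (minimum count 10, minimum total 15) and scaled by TMM. Differences are Vwf+Gata1+ minus Vwf-Gata1+, from edgeR's quasi-likelihood test (robust dispersion estimates) with Benjamini-Hochberg adjustment over all tested peaks at 0.05. The test was also tried on simulated data. Those libraries were independent, without deviations shared by replicate number, so the trial does not cover that structure. SDs are pooled within groups, from log2 CPM with a prior count of 2. Single values per library were compared by exact permutation over 70 splits. The software was edgeR 4.0.16, DESeq2 1.42.0 and limma 3.58.1 in R 4.3.3, with figures from matplotlib 3.10.9 under Python 3.11.15.

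The members, lists and tests were chosen with earlier results of these data known. Named peaks are the 6 of lowest unadjusted p in each direction, the 6 widest, the 6 of highest mean CPM, the 4 most and 4 least variable, 3 on either side of 1500 bp and the 3 closest pairs; others are said to be picked later. Gene lists were planned, but the reference tables are of GRCm38.p6 and coordinates were not converted, so genes and sequences were not analysed here. Pairing by replicate number was checked by correlating deviations from group means: over wide peaks r was 0.54, 0.31, 0.20 and 0.13, over all tested peaks 0.30, 0.16, 0.07 and 0.01. Every number exceeded 0.1 over the wide peaks only, so blocked values are printed beside the results they change. The alternatives were the block, RLE and total count scaling, other filters, a narrower and a wider width minimum, priors of 0.5 and 5, DESeq2, limma-voom, autosomes only, an adjusted p of 0.1 and each library left out. Leaving out replicate 1 of both groups, or the 3 stretches, was chosen after seeing the data.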

Additional observations from a re-analysis of the deposited data

Results flagged for a closer look

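In 5 of 88 groups of 4 libraries 1 library stood apart from the other 3. Its gap to the nearest, over the group's range, was above Dixon's 95% critical value. Chance alone flags about 1 in 20 groups that were not selected. Most groups here were named peaks, some of them picked for p or spread in these same libraries, so that rate need not hold. The share of counts in wide peaks was 20.5% in Vwf+Gata1+ replicate 1, against 21.0% to 21.1% in the others of that group. In chr10:77747383-77748898, Vwf+Gata1+ replicate 3 had 32.8 CPM against 19.99 to 21.3 CPM. In chr15:27756749-27758480, Vwf-Gata1+ replicate 3 had 31.2 CPM against 22.3 to 23.8 CPM. In chr1:59456747-59458445, Vwf-Gata1+ replicate 1 had 5.88 CPM against 14.6 to 16.4 CPM. In chr11:33831659-33833158, Vwf-Gata1+ replicate 2 had 21.2 CPM against 18.03 to 18.5 CPM.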

How the results depend on the processing

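Over 9 results and their alternatives, 116 of 144 values were classed as the same, 28 as moved and 0 as reversed. A count was the same within 1.5 times the count reported, or at 0 where 0 was reported. A tested difference was the same if its sign and its side of the 0.05 threshold held, whatever its size. The median fold change was judged against the spread between libraries, and the median SD against its spread over fits with single libraries left out. For the count of called wide peaks, of 4279, the share called over all tested peaks stands in brackets. It was 0 as reported (0.0144%) and 25 with the replicate block (0.584% of wide peaks, against 0.527%). It was 1 with total count scaling (chr15:27756749-27758480, 0.0278%) and 1 without replicate 1 of both groups (chr8:13036187-13037921, 0.0379%). With a narrower width minimum it was 1 of 8606 (chr11:110328977-110330226, of exactly that width, 0.0144%). At an adjusted p of 0.1 it was 3 (1 higher, 2 lower, 0.0618%). Leaving out single libraries gave 0 to 14 calls: 14 without Vwf-Gata1+ replicate 3 (0.0528% of all tested peaks), 2 without Vwf+Gata1+ replicate 1 (0.0758%) and 1 without Vwf-Gata1+ replicate 4 (0.0109%). The 174 wide peaks at an unadjusted p under 0.05 (4.07%, against 6.72% of all tested peaks) became 551 with the replicate block (12.9% against 10.3%), 91 with DESeq2 (2.13% against 3.47%), and 117 to 375 with single libraries left out, 375 without Vwf-Gata1+ replicate 3 (8.76% against 7.22%) and 275 without Vwf+Gata1+ replicate 1 (6.43% against 7.95%). The 121 wide peaks without overlap (2.83% of 4279, against 3.88% of all tested peaks) became 188 to 366 with 1 library left out, since fewer libraries overlap less often. The share over all tested peaks was then 6.51% to 8.14%, and 7.47% where the count was 366, without Vwf-Gata1+ replicate 3. Without replicate 1 of both groups the count was 411 of 4279, against 12.1% of all tested peaks. The median SD of 0.125 was 0.115 with total count scaling, 0.133 and 0.110 with a narrower and a wider (2000 bp) width minimum, 0.118 to 0.130 with single libraries left out and 0.110 without replicate 1 of both groups. For the other moves the cause was not tested. With the replicate block, results per library rest on 4 pairs, whose smallest p is 0.125, so no call was possible there. Their mean differences also equal the reported ones by design, so these values could only be classed as the same. Without replicate 1 of both groups, exact permutation of 3 against 3 libraries cannot reach 0.05 either. Tested differences could leave the same class there only by a change of sign. The share difference of 0.294 percentage points lay between 0.0668 and 0.543 with single libraries left out (lowest exact permutation p 0.143). The median log2 fold change lay between 0.01 and 0.06. At wide peaks the spread between libraries exceeded that of counting (median ratio 1.39), so more depth would lower it only in part.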

Other observations

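The 107 peaks of 1500 bp or more on chromosome X, outside the autosomal rule, had a median of 30.5 CPM and a median SD of 0.144. Their median log2 fold change was 0.03, and 5 had an unadjusted p under 0.05 in edgeR's test, 4 higher and 1 lower in Vwf+Gata1+, while 0 passed after adjustment.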
